A study of Caenorhabditis elegans with 2 samples.

Results

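The regions described here are 687 peaks of GEI-8 at promoters that serve protein-coding genes of a single strand, out of the 3000 strongest of the 30000 peaks called on both replicates pooled. They were selected by pooled signal and by position: peaks whose summit came nearer than 1000 bp to a tRNA or snoRNA gene were removed, and the summit had to lie between 1000 bp upstream and 200 bp downstream of the annotated 5′ end of genes of 1 strand only. The signal of a peak, the number of members and their place inside that window are therefore descriptions of the selection, and nothing was tested on them. The assay was ChIP-seq on 2 biological replicates of 1 group, so no contrast between groups exists. The worms were of strain OP589, in which the unc-119(tm4063) background is rescued by the transgene wgIs589, carrying gei-8 fused to TY1, EGFP and 3xFLAG together with unc-119(+). Worms of both sexes, pooled, were grown from starved L1 larvae to the L4 stage, at an age of 48 hours, and whole animals were used with an anti-GFP antibody. As a model, this is a tagged protein made from an added transgene, 1 line, and an average over all tissues of the animal; no untagged or gei-8 mutant worms were analysed here.

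GEI-8 belongs to the family of NCoR and SMRT, corepressors known from vertebrates. Such proteins do not bind DNA themselves: they are brought to promoters by DNA-binding factors, among them nuclear hormone receptors, and they carry histone deacetylases with them. Many worm messenger RNAs begin with a spliced leader added in trans, so the annotated 5′ end can lie downstream of the place where transcription starts.

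The summit and 100 bases on either side are shown for 6 of the 7 strongest members, because they carry the highest signal, and for the strongest member that holds a GAGA repeat (hsp-1). The strongest member with an E-box is among the 6 (F21C10.10). Sequences are from the RefSeq genome of WBcel235 (ce11), read in the direction of the gene. Capitals mark, on either strand, CACGTG (E-box), GAGAGAGA (GAGA repeat), GGGCGG (GC box) and CTGCGTCTC, a word added after these sequences had been seen. The windows are chrIII:3867438-3867638 for rpl-3 (plus strand), chrX:14818846-14819046 for epn-1 (minus strand), chrV:9095712-9095912 for F21C10.10 (plus), chrIII:9765548-9765748 for cbp-1 (plus), chrII:7529241-7529441 for ZK1290.5 (plus), chrIII:9053943-9054143 for R107.5 (minus) and chrIV:17278491-17278691 for hsp-1 (plus).
rpl-3: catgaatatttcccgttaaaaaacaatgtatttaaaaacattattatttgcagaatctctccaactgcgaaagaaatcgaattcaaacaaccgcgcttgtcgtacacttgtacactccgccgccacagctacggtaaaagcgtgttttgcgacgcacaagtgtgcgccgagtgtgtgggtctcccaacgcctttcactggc
epn-1: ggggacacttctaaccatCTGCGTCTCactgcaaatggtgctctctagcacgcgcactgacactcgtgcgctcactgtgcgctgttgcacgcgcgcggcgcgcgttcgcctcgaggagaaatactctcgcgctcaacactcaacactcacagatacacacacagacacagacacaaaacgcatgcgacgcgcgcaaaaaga
F21C10.10: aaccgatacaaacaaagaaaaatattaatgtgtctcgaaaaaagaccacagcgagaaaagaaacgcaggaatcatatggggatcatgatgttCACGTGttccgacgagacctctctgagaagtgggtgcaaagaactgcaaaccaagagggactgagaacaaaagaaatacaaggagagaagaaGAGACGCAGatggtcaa
cbp-1: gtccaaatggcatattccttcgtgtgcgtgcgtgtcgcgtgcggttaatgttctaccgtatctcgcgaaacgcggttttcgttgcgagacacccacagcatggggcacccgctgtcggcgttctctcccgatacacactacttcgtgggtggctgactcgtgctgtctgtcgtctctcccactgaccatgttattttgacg
ZK1290.5: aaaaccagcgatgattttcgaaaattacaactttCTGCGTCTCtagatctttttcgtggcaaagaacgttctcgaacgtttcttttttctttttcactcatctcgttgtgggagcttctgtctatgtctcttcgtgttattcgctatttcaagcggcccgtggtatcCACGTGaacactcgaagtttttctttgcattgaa
R107.5: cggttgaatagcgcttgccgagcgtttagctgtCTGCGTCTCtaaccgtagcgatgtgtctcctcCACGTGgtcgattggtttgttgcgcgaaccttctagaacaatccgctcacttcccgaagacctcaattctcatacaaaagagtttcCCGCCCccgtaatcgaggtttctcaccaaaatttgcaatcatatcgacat
hsp-1: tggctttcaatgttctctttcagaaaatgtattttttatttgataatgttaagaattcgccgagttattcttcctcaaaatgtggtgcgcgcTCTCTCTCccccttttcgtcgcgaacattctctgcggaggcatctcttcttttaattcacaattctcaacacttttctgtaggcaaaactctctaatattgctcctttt

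The strongest member lay 316 bp upstream of rpl-3, which encodes a protein of the large ribosomal subunit. Its signal was 274 in replicate 1 and 300.9 in replicate 2, at ranks 9 and 3 of those lists. The peak of epn-1, the worm epsin of endocytosis, was centred 432 bp upstream with a signal of 277 in replicate 1 and 208 in replicate 2, at ranks 8 and 17. The peak of cbp-1, the CBP and p300 histone acetyltransferase, lay 861 bp upstream with 246 in replicate 1 and 172 in replicate 2. All 3 stood among the 40 strongest peaks of each replicate. F21C10.10 had 247 in replicate 1 and 202 in replicate 2, ZK1290.5 had 150 and 202, and R107.5 had 180 and 155. Of these, ZK1290.5 differed most in rank, at place 94 in replicate 1 and place 20 in replicate 2. The summits of all 6 are intergenic.

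The 15 strongest members spanned a signal of 292 to 576 in the pooled list. In replicate 1 the same 15 had 131 to 277 and in replicate 2 they had 135.5 to 300.9, and all 15 ranked 200 or better in both. The summit was intergenic in 12 of them and over 200 bp upstream of the gene in 12, and 5 lie on chromosome X. Beside those named above, they belong to egg-5, a pseudophosphatase of the oocyte-to-embryo transition, tos-1, kin-14, a non-receptor tyrosine kinase, ftt-2, a 14-3-3 protein, puf-9, a Pumilio-family RNA-binding protein, H41C03.3, adh-1, an alcohol dehydrogenase, serp-1.1 and ain-1, a GW182-family partner of Argonaute in microRNA silencing. The peak of egg-5 ranked 13 in replicate 1 and 30 in replicate 2, and that of kin-14 ranked 159 and 25. The weakest of the 15, at ain-1, had 146 in each replicate.

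The median signal over the 687 members was 110, with quartiles of 96.2 and 140. The last members inside the limit were hpo-34 at 87.32, F17C11.11 at 87.29 and C16A3.6 at 87.28, the last of which is the peak of rank 3000. The next promoter peaks outside it were zak-1 at 87.27, mbk-2 at 87.21 and vps-4 at 87.20, so the limit cuts through a continuum. The deposited q-value was below 0.05 for 489 members (71.2%) and reached 0.14 in the weakest. The deposited list after the irreproducible discovery rate threshold, which holds the strongest of the pooled peaks, contains 240 of the members (34.9%).

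Of the 687 members, 377 (54.9%, exact 95% interval 51.1 to 58.6%) overlapped one of the 3000 strongest peaks of replicate 1 and of replicate 2 as well. Over all 3000 ranked peaks that share was 52.3%, so the share of the members stood near the background. A further 114 were matched in replicate 1 alone, 148 in replicate 2 alone and 48 in neither. Strong members were matched more often than weak ones: 223 of the 240 members on the thresholded list were matched in both replicates (92.9%), and 154 of the other 447 (34.5%). The pooled list is made from the same 2 libraries, so this is a description of where the pooled signal came from. Across the 678 members with a peak in both relaxed lists, whose replicate values share the control and the local composition, Spearman's rho of the replicate signals was 0.39 and Pearson's r of their log2 values was 0.54. The rank correlation was 0.44 over the 237 of them on the thresholded list and -0.22 over the 441 weaker ones; both subsets were set by pooled signal. The replicate summits of a member lay a median of 38 bp apart, and 392 of the 678 (57.8%) were within 50 bp of each other.

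**Figure D1:**
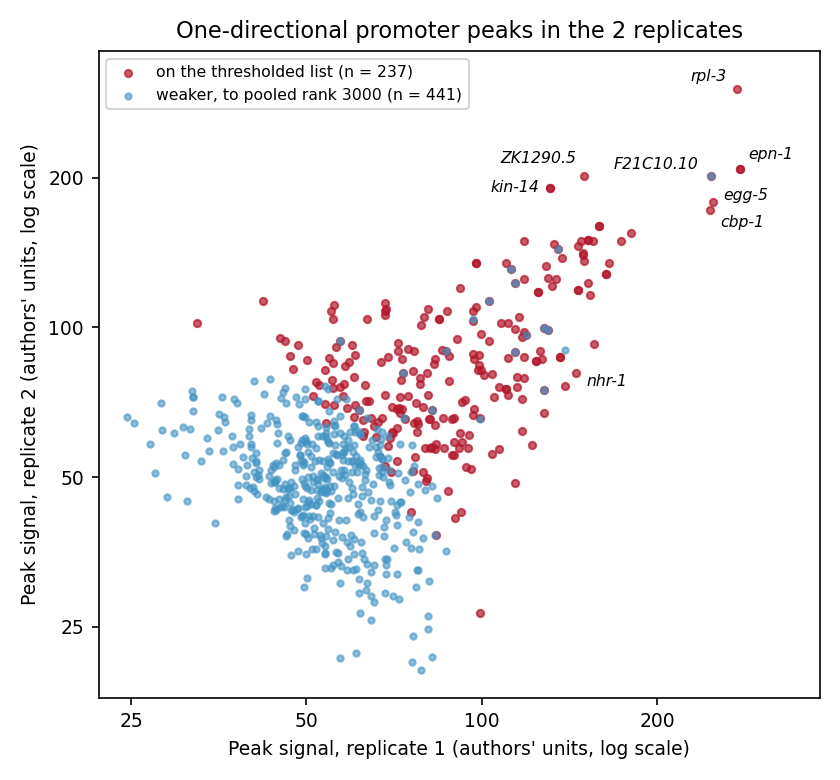
Signal of each one-directional promoter peak in replicate 1 (horizontal) and replicate 2 (vertical), in the authors' units on log scales, for the 678 members with an overlapping peak in both relaxed lists. The 237 members on the thresholded list (red) reach to rpl-3 at 274 and 300.9, the 441 weaker ones (blue) fill the lower left, and a blue point among the strong ones overlaps the replicate peak of a stronger neighbour.

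Some members rested on 1 replicate. The peak 32 bp upstream of smu-1, a splicing factor, held pooled rank 378 and rank 934 in replicate 2 and overlapped no peak of the relaxed list of replicate 1. In all, 7 members overlapped no replicate 1 peak and 2 overlapped no replicate 2 peak. Of the 2 members at mep-1, which encodes a zinc-finger partner of chromatin-remodelling factors, the stronger, 648 bp upstream, held rank 395 in replicate 1 and 15780 in replicate 2. The other, 441 bp upstream, overlapped the same replicate 1 peak and held rank 966 in replicate 2, so it was matched in both. In the other direction, rpt-1, a proteasome ATPase, held rank 20199 in replicate 1 and 2071 in replicate 2. Where 2 members adjoin they can overlap the same replicate peak, which was so for 70 members in replicate 1 and 68 in replicate 2.

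Members were most frequent just upstream of the gene. The median summit lay 276 bp upstream (quartiles 590 and 82 bp upstream), and the lists of the replicates taken alone gave medians of 283 and 282 bp upstream. Per Mb of one-directional window DNA, members numbered 58.7 in the bin 200 to 100 bp upstream, 53.6 by replicate 1 alone and 55.5 by replicate 2 alone. They numbered 20.5 per Mb at 1000 to 900 bp upstream and 33.3 per Mb at 100 to 200 bp downstream. The 4545 peaks ranked below 6000 in the same kind of window had another profile, with 236 per Mb at 200 to 100 bp upstream and their highest values downstream of the 5′ end, 320 per Mb in the first 100 bp and 314 in the next. In all, 282 members (41%, 37.3 to 44.8%) had a summit within 200 bp of the 5′ end, and the mean over the replicate lists was 41.2 ± 0.303% (SD, n = 2). A further 189 lay over 200 and up to 500 bp upstream and 216 farther upstream. Among weaker one-directional peaks the share within 200 bp was 44.5% at ranks 3001 to 6000, 41% at 6001 to 12000 and 39.8% at 12001 to 30000. It was 30% at ranks 1 to 300. The share of the members thus stood near that of the weaker peaks. At the 91 divergent promoters of the same 3000 peaks, where genes of both strands share the window, 65 summits (71.4%) were within 200 bp of a 5′ end, and the median was 99 bp upstream. There the nearest of several 5′ ends was used.

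**Figure D2:**
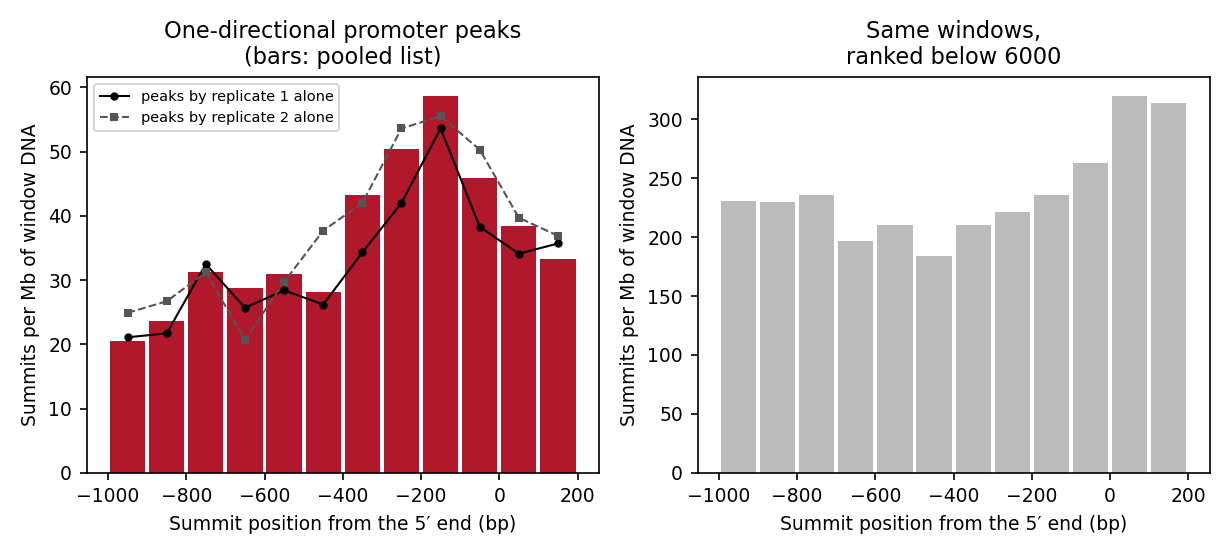
Summits per Mb of window DNA in 100 bp bins from 1000 bp upstream to 200 bp downstream of the annotated 5′ end, for the one-directional promoter peaks (left; bars from the pooled list, lines from the 3000 strongest peaks of each replicate) and for peaks ranked below 6000 in the same windows (right, on its own vertical scale). The left profile is highest at 58.7 per Mb between 200 and 100 bp upstream, and the right one at 320 per Mb just downstream of the 5′ end.

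The 5 strongest members with a summit within 50 bp of the 5′ end were those of kin-14 (37 bp downstream), kel-3 (6 bp downstream), Y39E4B.6 (14 bp upstream), cox-5B (8 bp upstream) and smu-1. Such close summits made up 61 of the 687 (8.88%). The peak of kel-3 held rank 92 in replicate 1 and 141 in replicate 2, and that of cox-5B, a subunit of cytochrome c oxidase, 292 and 423.

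By the annotation, 433 summits (63%) were intergenic, 90 (13.1%) lay in a coding exon, 53 in an RNA gene or pseudogene, 53 in an intron, 33 in a 5′ UTR and 25 in a 3′ UTR. The intergenic ones had a median signal of 114.8, and 58% of them were matched in both replicates. Those in coding exons had a median of 100.7 and were matched in 44.4%. The 189 members over 200 and up to 500 bp upstream were matched in 63.5%, against 51.4% of those within 200 bp and 51.9% of those farther upstream. Members downstream of the 5′ end, 117 in number, were matched in 47.9% and were on the thresholded list in 20.5%.

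One-directional window DNA covers 19.1 Mb, or 19% of the nuclear genome, and held 36 members per Mb; the whole genome held 29.9 of the 3000 ranked peaks per Mb. On chromosome X, members numbered 49.7 per Mb of this DNA, against 33.5 per Mb on the autosomes. Replicate 1 alone gave 42.5 on X and 31 on the autosomes, and replicate 2 alone gave 46.3 and 35.7. Peaks ranked below 6000 numbered 266 per Mb on X and 233 per Mb on the autosomes. All ranked peaks numbered 34.7 per Mb of chromosome on X and 28.9 on the autosomes, and divergent promoter peaks, of which 4 lie on X, 35.3 and 45 per Mb of their own window DNA. Chromosome X held 145 members (21.1%) among 615 ranked peaks, of which 23.6% were members, near the 22.9% over all chromosomes. The median G and C content was 47.3% for members on X and 41.8% for autosomal ones. The sex chromosome is present in 2 copies in hermaphrodites and 1 in males, and the share of males in these pools was not given in the sources used here. Among the autosomes, chromosome III had 42.5 members per Mb of window DNA and chromosome V had 26.6. The strongest member of each chromosome was egg-5 on I, ZK1290.5 on II, rpl-3 on III, hsp-1 on IV, F21C10.10 on V and epn-1 on X.

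Summits were richer in G and C than the DNA around them. The median over the summit and 100 bases on either side was 43.3%, with 43.8% and 41.8% by the lists of replicates 1 and 2. The windows 500 bp to either side of the same summits had a median of 34.8%, and windows 250 to 50 bp upstream of all 19973 protein-coding genes had 33.8%. The summit exceeded both of its own flanks in 470 members (68.4%) and lay below both in 53 (7.71%). Divergent promoter peaks had 45.3%, and one-directional peaks ranked below 6000 had 39.3%. Among one-directional peaks of the whole pooled list the median fell with rank. It was 46.3% for the 60 within ranks 1 to 300, 44.5% for the 180 in the rest of the thresholded list, 41.8% for the 447 in the rest of the 3000 and 39.3% for the 3396 among the weakest 18000 peaks. Base composition thus moves with signal, and its part in the signal was not tested.

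**Figure D3:**
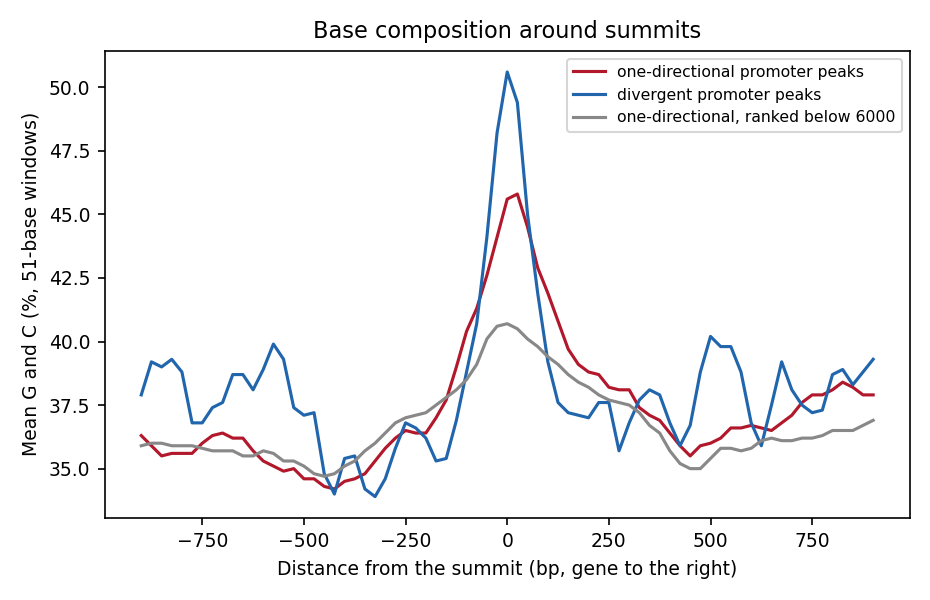
Mean percentage of G and C in 51-base windows by distance from the summit in bp, with the gene to the right, for the one-directional promoter peaks, the 91 divergent promoter peaks and the one-directional peaks ranked below 6000. The mean is 45.6% at the summit of the one-directional promoter peaks, 50.6% at divergent ones and 40.7% at the weaker peaks, and it is 34.6% at 500 bp upstream of the one-directional promoter peaks.

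Motif matches were counted on both strands in the same windows, beside the flanks and beside windows of the same length at all protein-coding promoters. The GAGA repeat GAGAGAGA was present at 56 members (8.15%, 6.22 to 10.5%), in 1.16% of flanks and in 2.61% of all promoters. The E-box CACGTG, the site of Myc, Max and Mad type basic helix-loop-helix proteins, was present at 66 members (9.61%), in 3.35% of flanks and in 3.98% of all promoters. The GC box GGGCGG was present at 72 members (10.5%), in 2.91% of flanks and in 5.59% of all promoters. The replicate lists gave 8.32% and 8.01% for the GAGA repeat, 9.12% and 8.85% for the E-box and 8.96% and 11% for the GC box. In all, 172 members (25%) held at least 1 of these 3 and 22 held 2 or more. Intronic peaks away from promoters held the E-box in 14.9% and the GAGA repeat in 9.15%, and intergenic ones in 12.9% and 12.1%. A match is a string of letters and not a bound site. The part of the higher G and C content in the GC box counts was not tested.

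Members with the E-box had a median signal of 131, against 109 for those without; with the GAGA repeat the medians were 120 and 109. The strongest with an E-box were F21C10.10, ZK1290.5 and R107.5, all shown above, and the strongest with a GAGA repeat were hsp-1, a constitutive Hsp70 chaperone, hlh-11 and H37A05.4. GAGA repeats lay farther out, with a median summit of 452 bp upstream, against 257 bp for the others. The B box core GTTCGANNC, part of the internal promoter of tRNA genes, remained at 15 members (2.18%) although summits within 1000 bp of an annotated tRNA gene had been removed; it was in 1.38% of flanks and 0.976% of all promoters. These 15 had a median summit of 579 bp upstream.

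The core site AGGTCA of nuclear receptors was at 41 members (5.97%), in 5.90% of flanks and in 5.96% of all promoters. Some motifs, most of them rich in A and T, were less frequent at summits than in promoters at large. The part of the higher G and C content of the summits in these lower counts was not tested. The TATA box TATAAA was at 12.7% of members, in 21% of flanks and in 25.7% of all promoters, and the T run TTTTTTTT at 9.02%, 23.4% and 25.1%. The splice acceptor TTTCAG was at 19.5%, 35.1% and 28.3%, and the GATA site TGATAA at 18.2%, 18.3% and 22%, in the same order. For TTTCNNTTT, a BLMP-1-like string, the shares were 24%, 26.3% and 31.3%. For CCAAT they were 30%, 32.5% and 32.7%, and for the forkhead string GTAAACA 3.35%, 2.91% and 3.74%, and in both the exact interval of the members holds the share of all promoters. The E2F-like GCGGGAA was at 3.78%, 2.26% and 2.41%, and the CRE TGACGTCA at 1.89%, 0.946% and 1.12%, both higher at summits. For the CRE the exact interval of the members holds the share of all promoters. For GCGGGAA the lists of replicates 1 and 2 gave 3.2% and 2.53%, the latter near the 2.41% of all promoters. GGGCGG and GCGGGAA can overlap, and the other strings were counted without regard to overlap.

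The printed sequences of epn-1, F21C10.10, ZK1290.5 and R107.5 share the word CTGCGTCTC, which was therefore counted after it had been seen. It was at 46 members (6.70%), in 0.582% of their flanks, in 2.24% of one-directional peaks ranked below 6000 and in 2.31% of all promoters. Members that hold it had a median signal of 138, against 109 for the others. The word was picked from windows printed for their high signal, so this difference is in part set by that choice. Intronic and intergenic peaks away from promoters held it in 6.04% and 8.73%. It contains the 6-mers CGTCTC and CTGCGT, and CGTCTC alone was at 21.1% of members, in 6.26% of flanks and in 7.60% of all promoters.

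**Figure D4:**
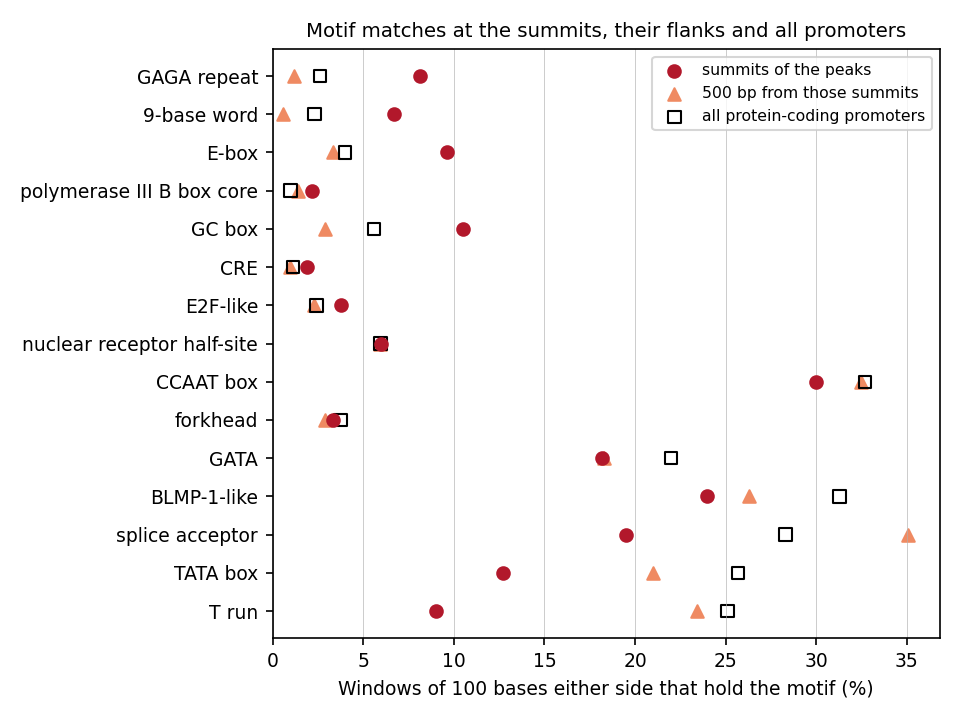
Percentage of windows of the summit and 100 bases on either side that hold each motif on either strand, at the summits of the 687 one-directional promoter peaks (filled circles), 500 bp from those summits (triangles) and at all 19973 protein-coding promoters (open squares), ordered by the ratio of the first to the last. The GAGA repeat, the added 9-base word, the E-box and the GC box lie to the right of both references, and the TATA box, the T run and the splice acceptor to the left.

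RNA genes other than tRNA, snoRNA and piRNA genes stood beside many members. One lay within 200 bp of the summit in 15.7% of members (13.1 to 18.7%), against 7.55% of one-directional peaks ranked below 6000 and 5.19% of points 150 bp upstream of all protein-coding genes. Members with such a neighbour had a median signal of 124 and were matched in both replicates in 66.7%; those without had 108.4 and 52.7%. Of the 152 members with one within 1000 bp, the nearest was of class ncRNA in 131, lincRNA in 8, snRNA in 7 and miRNA in 6. In 6 of the 15 strongest members an RNA gene lay within 100 bp. The egg-5 summit was 74 bp from sls-2.4 and the stronger of the H41C03.3 summits 17 bp from sls-2.1, both genes of the SL2 spliced leader RNA. Immunoprecipitation at such a place cannot be told apart between the RNA gene and the protein-coding gene.

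The members fell on 661 of 19973 protein-coding genes (3.31%), with 604 by replicate 1 alone and 682 by replicate 2 alone. In 667 the summit was in the window of a single gene, and 46 genes had 2 members, among them lgg-1 and lgg-2, both Atg8-family proteins of autophagy, and nhr-35, nhr-48 and nhr-49. No gene had 3 or more. Genes with a member had a median annotated length of 2657 bp, against 2027 bp over all genes, and a median distance to the next gene upstream of 1338 bp, against 1059 bp. The upstream neighbour was in tandem in 60.5% of them and in 50.9% of all genes. The selection itself removes close head-to-head neighbours.

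Gene lists were set beside the share over all genes, 3.31%. The lists were chosen with earlier results of these data known, so their shares and intervals are descriptions and not tests. Of 31 lists, 18 lay above it, 8 with an exact 95% interval wholly above, and 3 lay wholly below. The highest share was that of heterochronic genes and microRNA cofactors, which time larval development, at 8 of 26 (30.8%, 14.3 to 51.8%), with 8 by replicate 1 alone and 7 by replicate 2 alone. They were puf-9, ain-1, the exoribonuclease gene xrn-2, mab-10, lin-66, lin-14, the casein kinase gene kin-20 and the RNA helicase gene cgh-1. The puf-9 peak had 155 in replicate 1 and 149 in replicate 2, and the ain-1 peak 146 in each. The lin-14 peak, 191 bp upstream of a gene that sets first-stage larval fates, was far weaker, with 54.9 in replicate 1 and 53.5 in replicate 2. Of the 8 peaks, 7 were among the 3000 strongest of both replicates, and 4 lie on X.

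Ribosomal protein genes of the cytosol had 11 of 82 (13.4%, 6.89 to 22.7%), and 8 by each replicate alone; those of mitochondria had 2 of 66 (3.03%), near the background. Beside rpl-3, the peak of rpl-35 had 137 in replicate 1 and 138 in replicate 2. The remaining 9 were weaker, from rpl-41.2 at pooled rank 634 to rpl-14 at 2357, and 5 of the 11 were among the 3000 strongest of both replicates. All but rpl-24.2 lay over 200 bp upstream, with a median of 361 bp. Respiratory chain and ATP synthase genes had 5 of 47 (10.6%, 3.55 to 23.1%), an interval that begins close to the share over all genes. They were cox-6A with 152.6 in replicate 1 and 115.6 in replicate 2, cox-5B with 111 and 86.7, cox-5A, nduf-9 and atp-4. The cox-6A summit was 31 bp from the snRNA gene F54D8.7, and the nduf-9 summit lay inside the miRNA gene cel-mir-4936. Signal at these summits cannot be assigned to the protein-coding gene over the RNA gene. Chaperone genes had 3 of 73 (4.11%), yet hsp-3, the BiP chaperone of the endoplasmic reticulum, had 149 in replicate 1 and 140 in replicate 2, and hsp-1 had 133 and 147. The retinoblastoma and DREAM list had 3 of 16 (18.8%: lin-9, lin-13 and lin-52), with 3 by replicate 1 alone and 0 by replicate 2 alone, so this share rests on replicate 1.

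Among regulators, nuclear hormone receptor genes had 15 of 274 (5.47%, 3.1 to 8.87%), an interval that holds the 3.31% over all genes. Each replicate alone gave 13. The strongest were nhr-35, 450 bp upstream, with 135 in replicate 1 and 144 in replicate 2, and nhr-1 with 145 and 80.9. Of the 15 genes, 5 lie on X, both of these among them. The list also holds nhr-49, a regulator of fatty acid metabolism, with 61.7 in replicate 1 and 61.1 in replicate 2. Other DNA-binding regulators had 14 of 160 (8.75%, 4.87 to 14.2%), led by the bHLH gene hlh-11 with 145.6 in replicate 1 and 118.8 in replicate 2 and the zinc-finger gene ztf-7 with 130 and 126. Its members mdl-1, mxl-3 and mml-1 encode worm Mad, Max-like and Mondo proteins of the E-box binding network. Its members daf-16 and sma-2 are also counted in the list of signalling pathways. Histone modification and corepressor genes had 5 of 52 (9.62%, 3.2 to 21%), an interval that holds the share over all genes. The strongest was cbp-1, and next came the methyltransferase gene met-1 at 68.3 in replicate 1 and 111.5 in replicate 2. No homeobox gene of 97 had a member (exact 95% interval up to 3.73%); the replicate lists taken alone held 2 and 1.

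Among tissue and metabolic lists, intestinal genes had 6 of 49 (12.2%, 4.63 to 24.8%). There were 2 by replicate 1 alone and 9 by replicate 2 alone, so this share rests more on replicate 2. Of the 6 peaks, 3 were among the 3000 strongest of both replicates. The 6 genes were led by the peptide transporter gene pept-1, with 93.4 in replicate 1 and 71.5 in replicate 2, and by cpr-1 with 58.4 and 57.1. The vitellogenin gene vit-5 had 45.5 in replicate 1 and 74.2 in replicate 2. Muscle structure genes had 6 of 60 (10%, 3.76 to 20.5%), an interval that begins close to 3.31%. The actin gene act-5 is counted in both the intestinal and the muscle list. Without act-5 the muscle share would be lower, and whether its interval would still lie above 3.31% was not computed. The strongest were unc-23 at 76.6 in replicate 1 and 89.8 in replicate 2 and unc-112, which encodes a kindlin, at 79.2 and 51.1. Fatty acid, propionate and branched-chain metabolism had 12 of 130 (9.23%, 4.86 to 15.6%), led by the aminotransferase gene bcat-1, with 76.1 in replicate 1 and 81.8 in replicate 2, and acs-19. Neuronal signalling had 5 of 73 (6.85%, 2.26 to 15.3%), an interval that holds 3.31%. It was led by the G protein gene egl-30 with 114 in replicate 1 and 123 in replicate 2 and by eat-16. None of the 64 genes on the germline list had a member (exact 95% interval up to 5.6%), also by either replicate alone. That list does not hold every such gene: egg-5, of the oocyte-to-embryo transition, is not on it and had a member at pooled rank 22.

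Gene families that are greatly expanded in nematodes had few. Chemoreceptor genes had 5 of 1316 (0.380%, 0.123 to 0.884%), F-box genes 2 of 322 (0.621%) and C-type lectin and antimicrobial genes 2 of 346 (0.578%), and all 3 intervals lie below 3.31%. The strongest of these were srh-17, with 58.4 in replicate 1 and 71.7 in replicate 2, srz-62 with 77.7 and 32.6, fbxb-72 with 48.4 and 92.3, and clec-50 with 56 and 58. Cuticle collagens had 3 of 176 (1.70%, 0.353 to 4.9%), an interval that holds 3.31%. Of these, col-159 and col-160 share 1 summit with 58.2 in replicate 1 and 83.7 in replicate 2. The remaining lists had intervals that hold 3.31%. Their strongest members were mrpl-50, eif-2Bgamma and eef-1A.2, rpn-11, snr-4, vps-37 after epn-1, rpa-2 and taf-12, his-60 and his-37, lpr-1, ins-39 and flp-14, sem-5 and sma-2, ugt-63 and ugt-49, gsp-1 and grl-21. Genes entered the lists by symbol or name pattern, so a list can hold a gene of another function, and its count is approximate. Histone genes have near-identical copies, and how reads that map to several were treated is not given in the sources used here, so their peaks are uncertain. In this group the eif-2Bgamma peak was highest after epn-1 and vps-37, with 128 in replicate 1 and 74.9 in replicate 2.

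**Figure D5:**
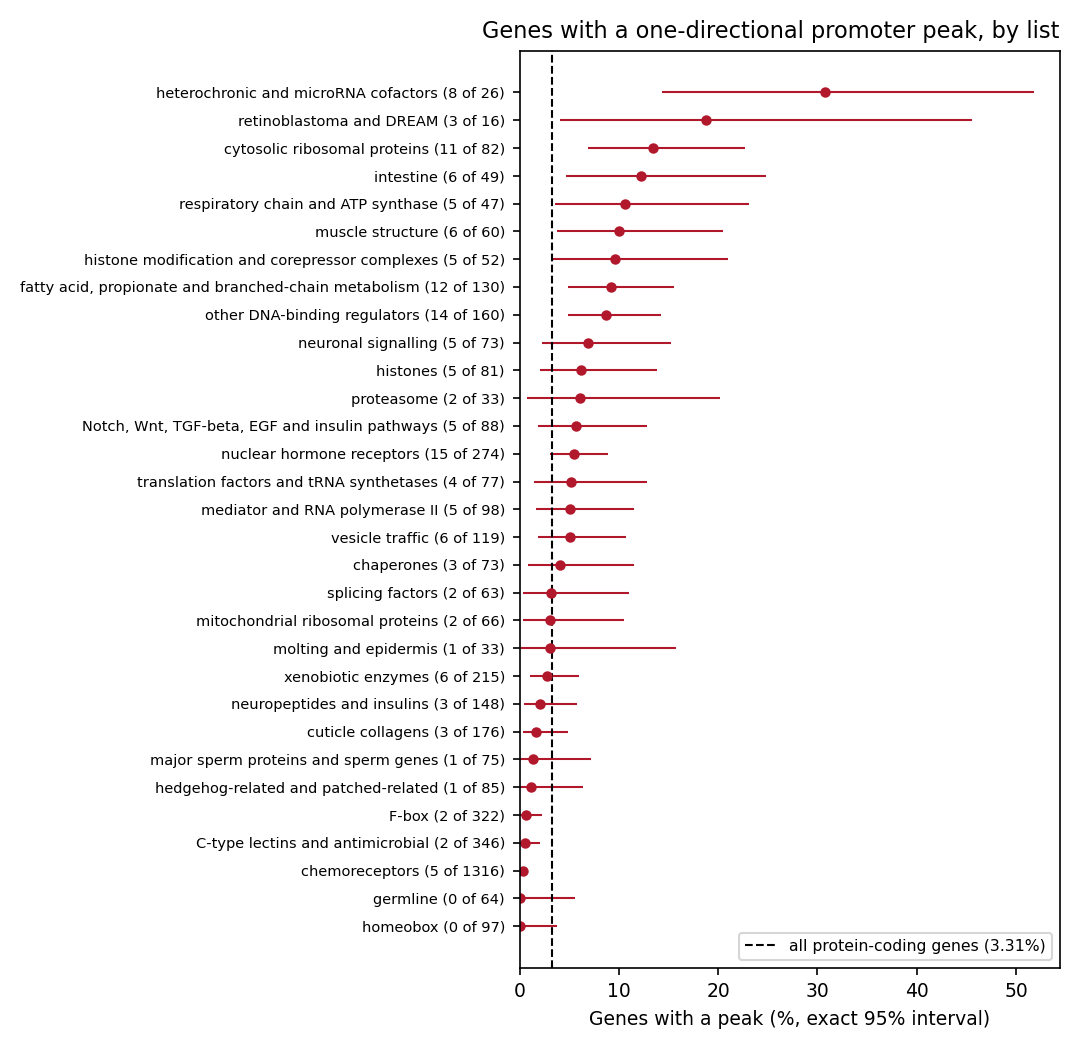
Percentage of the genes of each of 31 lists that had a one-directional promoter peak, with exact 95% intervals and, in brackets, the count of genes, ordered by share; the dashed line marks the 3.31% of all protein-coding genes. Heterochronic genes and microRNA cofactors stand first at 30.8%, and chemoreceptors, germline and homeobox genes last.

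Neither gene carried by the transgene had a member. Around gei-8 itself, on chromosome III between 8111168 and 8121232, 12 pooled peaks lay within 2000 bp, of which 3 were among the 3000 strongest. The best of them held rank 32 and has a tRNA or snoRNA gene nearby, so the selection removed it. At unc-119 the only peak within 2000 bp held rank 15740. Reads from the transgene copies and reads from the native loci cannot be told apart.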

How the data were processed

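Chromatin immunoprecipitation was done on 2 biological replicates of L4 worms, and the files hold no reads or coverage, so depth is unknown and intervals (exact Clopper-Pearson, 95%) cover the counting error of peaks or genes only. Per the labels the assembly is ce11. The sources used here do not give the aligner or the peak caller. The deposited texts name relaxed lists of 30000 peaks for each replicate and for both pooled, and 1 list after the threshold, all against 1 control alignment shared by the replicates. The signal of each peak and its −log10 q-value are the authors' values, as deposited; signal was compared within a list and otherwise by rank or side by side.

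Summits come from the deposited offsets. Peaks were joined to Ensembl release 115 of WBcel235, with coordinates counted from 1. A match needed an overlap of 1 bp with a replicate's 3000 strongest peaks, and the strongest overlapping peak was taken. Replicate spread came from applying the selection to each replicate list. RNA genes were those of class ncRNA, lincRNA, snRNA, miRNA, rRNA and antisense RNA. Named genes were those of the 15 strongest members, the strongest of each list (also the next strongest where a list had 3 or more) and of each chromosome, the 5 strongest within 50 bp of the 5′ end, the 3 weakest, gei-8 and unc-119; others named in the text were chosen after their values were seen. The members, lists and motifs were chosen with earlier results of these data known. A sequence withheld here, and results that need it, are not reported. The functions were tested on simulated data. Python 3.11.15, numpy 2.4.6, pandas 2.3.3, scipy 1.17.1 and matplotlib 3.10.9 were used.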

Additional observations from a re-analysis of the deposited data

How the results depend on the processing

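Every median summit lay upstream of the 5′ end, but each window reached farther upstream than downstream, so evenly spread summits would give this too. With only as many pooled peaks as the thresholded list there were 240 members on 234 genes, a median summit of -302 bp, 37.5% of summits within 200 bp, 92.9% matched in both replicates and 45.3% G and C; with the 6000 strongest these were 1264, 1187, -266, 42.6%, 32.5% and 41.8%. A window of 500 bp upstream to 100 bp downstream gave 449 members, a median of -173 bp and 55% within 200 bp, and one of 2000 bp upstream gave -616 bp and 26.5%, both set by the window itself. The median and the share within 200 bp were -270 bp and 41.5% with tRNA and snoRNA genes kept 500 bp away, -278 bp and 40.5% at 2000 bp, -267 bp and 41.7% with 5 RNA classes removed, -278 bp and 41.5% with the 5′ ends of all transcripts, and -263 bp and 42.1% with only the strongest of summits within 500 bp of each other. Without either replicate in turn, there were 625 to 712 members on 604 to 682 genes, medians of -283 to -282 bp, 41 to 41.4% within 200 bp and 41.8 to 43.8% G and C. Taking as many peaks of each replicate as the thresholded list, or 6000, moved the matched share to 22.9% and 80.1%, and asking for a replicate summit within 100 bp moved it to 44.4%. G and C was 45.5% with 50 bases on either side and 41.9% with 150. Of 75 recomputed values, 39 stayed within the replicate spread, the binomial interval or 1.5 times the count; that spread is 1.06 bp for the median and 0.303 percentage points for the share within 200 bp, so most of the others moved little. Leaving out the transgene loci changed none of the values. The matched share has no value from 1 replicate's list, since that list matches itself. No paired analysis was possible because there is 1 group and no test. Depth cannot be stated, and of the 447 members weaker than the thresholded list 34.5% were matched in both replicates.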

Other observations

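Of 524 6-mers present at 10% or more of the one-directional promoter peaks, those with the highest ratio to all promoters were CCGCCG, at 11.1% of members, in 4% of flanks and in 3.06% of all promoters, CGTCGC, at 10%, 3.28% and 2.81%, and CGACGA, at 14.3%, 7.93% and 4.36%. The dinucleotide run ACACAC was at 22.1% of members, in 6.77% of flanks and in 9.03% of all promoters. These strings were picked for their values, and all but the last are rich in C and G, as the summits are.

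Among the 21 members whose nearest RNA gene was an snRNA, lincRNA or miRNA gene, 3 summits lay inside it. That of nduf-9 is in cel-mir-4936, with rank 324 in replicate 1 and 619 in replicate 2, that of gei-4 is in linc-90, with ranks 397 and 398, and that of C10B5.1 is in cel-mir-357, with ranks 3334 and 5625. Only the first 2 are among the 3000 strongest peaks of both replicates.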
